A study of Taxus mairei and Taxus cuspidata and Taxus x media with 9 samples.

Results

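NPR proteins of plants carry a BTB domain and ankyrin repeats and act with TGA transcription factors in the cell nucleus. In *Arabidopsis*, NPR1, NPR3 and NPR4 bind salicylic acid, the hormone of defense against biotrophic pathogens: NPR1 activates defense genes, and NPR3 and NPR4 repress them until salicylate is bound. NPR5 and NPR6 of the same family are the BLADE-ON-PETIOLE proteins, which shape leaf bases, organ boundaries and abscission zones and are not known as salicylate receptors. The NPR family was taken here as every unigene whose gene name in the deposited annotation is NPR followed by a digit. The rule found 7 of the 33895 unigenes, of which 13551 have a gene name.

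The libraries came from twigs of 3-year-old yew trees of *T. media*, of *T. mairei* and of *T. cuspidata*, kept at 25 °C, in 12 h of light and 12 h of dark, at 60 to 70% relative humidity. Each species had 3 libraries, and the question behind the series was how the transcriptomes of yews that differ in taxol content differ. *T. media* is a garden hybrid of *T. baccata* and *T. cuspidata*. The study's methods name several independent trees per species and call the replicates biological, without saying which trees went into which library, so p-values measure the spread between these libraries, whatever trees they hold. Values are in TPM, the number of reads per length of a unigene, brought to a common sum over all unigenes of a library. Read numbers are known for 8 libraries and not for *T. mairei* replicate 3. A unigene was called at an edgeR adjusted p below 0.05 with an absolute log2 fold change above 1. The family was selected on the TPM of comp25426_c0 and comp25426_c2 in the 3 species, whose pattern was known beforehand, so their values, and those of comp25426_c1 from the same assembly component, are a description with no test.

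By name, 4 of the 7 unigenes belong to the salicylate receptor type. These are comp25426_c2 (NPR1, 1214 bp), comp25426_c0 (NPR4, 336 bp), comp25426_c1 (NPR3, 252 bp) and comp30369_c0 (NPR3, 3650 bp). The other 3, comp19695_c0 (NPR5, 912 bp), comp168630_c0 (NPR5, 387 bp) and comp10798_c0 (NPR6, 508 bp), carry the gene ontology terms bract formation, floral organ abscission and nectary development, so the name salicylate receptor does not hold for them by annotation. All 7 are annotated with nucleus and protein binding. Regulation of the salicylic acid and of the jasmonic acid signaling pathways is given for 2 of them, comp25426_c2 and comp25426_c0. No unigene in the files used here is annotated with the KEGG ortholog of NPR1. The names are best matches to proteins of other plants, and no phylogeny was made.

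The 3 unigenes comp25426_c0, c1 and c2 are parts of a single Trinity component, with a summed length of 1802 bp. Whether they are pieces of a single gene was not tested, so their agreement is not that of separate genes. All 7 unigenes passed the filter on low counts.

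The NPR1 unigene comp25426_c2 had 3.49, 3.81 and 3.27 TPM in the 3 *T. media* libraries. In *T. mairei* it had 10.96, 9.93 and 12.32 TPM, and in *T. cuspidata* 0.12, 0.07 and 0.34 TPM. *T. mairei* was highest, *T. media* lay between, *T. cuspidata* was near 0, and no libraries of different species overlapped. The means were 3.52 ± 0.272 TPM in *T. media*, 11.1 ± 1.2 TPM in *T. mairei* and 0.177 ± 0.144 TPM in *T. cuspidata* (SD, n = 3 each). The level rested on 168 to 207 reads per *T. media* library, on 948 and 741 reads in *T. mairei* replicates 1 and 2, and on only 6, 4 and 20 reads in *T. cuspidata*. Ranked among all unigenes by mean TPM, comp25426_c2 stood at percentile 25.4 in *T. media*, 64.3 in *T. mairei* and 12.1 in *T. cuspidata*. The fitted level in *T. media* was 18.0-fold that in *T. cuspidata* (log2 4.17, SE 0.48), and *T. mairei* exceeded *T. cuspidata* 86.8-fold (log2 6.44, SE 0.53). *T. media* lay below *T. mairei* by a log2 fold change of -2.27 (SE 0.44).

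**Figure D1:**
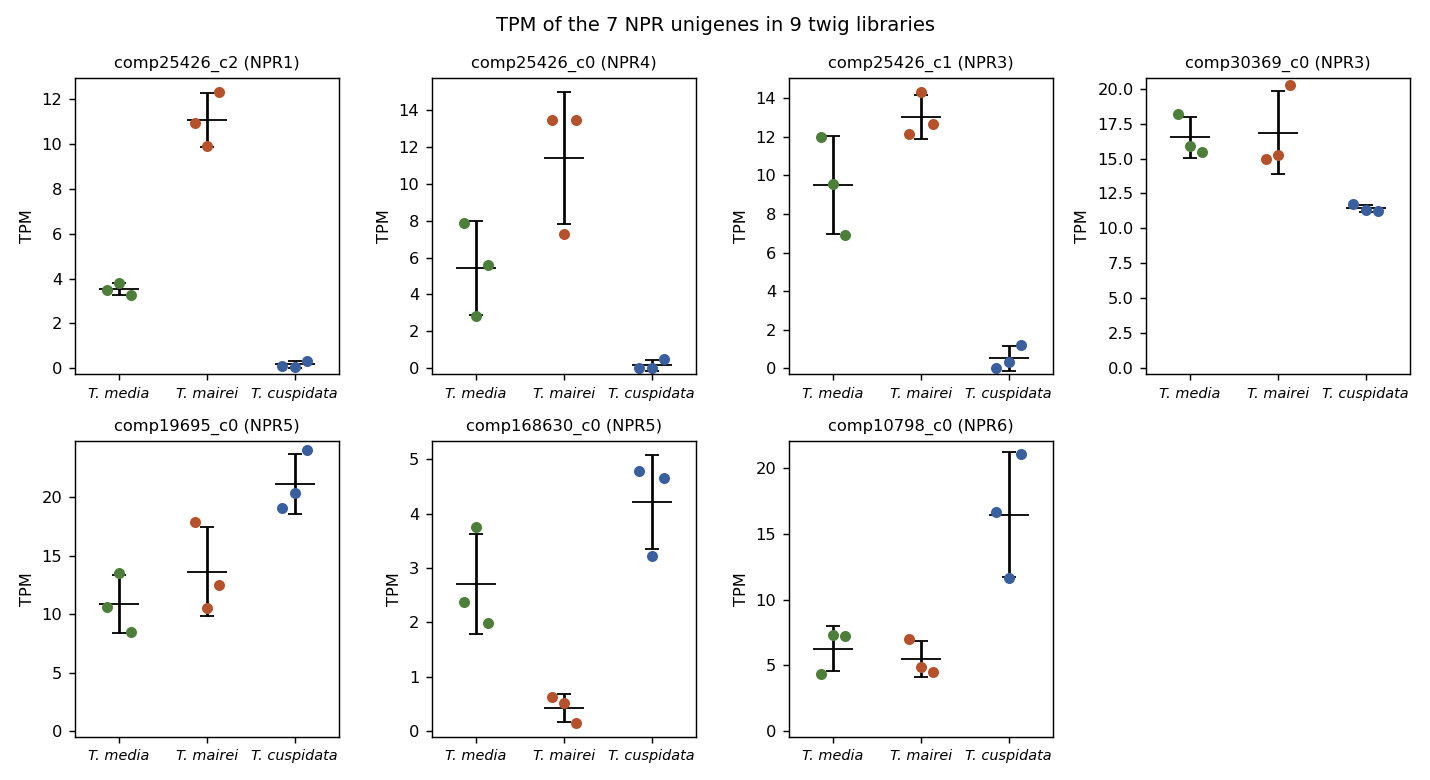
TPM of each NPR unigene (vertical axes, each with its own range) in 3 libraries per species (points), with the mean and SD (bars). The 3 comp25426 unigenes are near 0 in *T. cuspidata*, where comp25426_c2 has at most 0.34 TPM, while comp10798_c0 has its 3 highest values there.

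The NPR4 unigene comp25426_c0 had 7.87, 2.82 and 5.62 TPM in *T. media*. It had 13.45, 7.25 and 13.42 TPM in *T. mairei* and 0, 0 and 0.51 TPM in *T. cuspidata*. The last value is 4 reads, and the 2 libraries without a read allow up to 0.459 and 0.39 TPM, the level of 3 reads by counting error alone. *T. media* and *T. mairei* overlapped, and both lay above all *T. cuspidata* libraries. The log2 fold change was 4.71 (SE 0.96) for *T. media* vs. *T. cuspidata*, -1.63 (SE 0.76) for *T. media* vs. *T. mairei* and 6.33 (SE 1.0) for *T. mairei* vs. *T. cuspidata*.

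The short NPR3 unigene comp25426_c1, another putative salicylate-binding repressor by name, had 12.00, 9.57 and 6.91 TPM in *T. media*. It had 12.13, 14.31 and 12.69 TPM in *T. mairei* and 0, 0.31 and 1.23 TPM in *T. cuspidata*. Its order was that of comp25426_c2, but *T. media* and *T. mairei* were closer, with 12.00 TPM in the highest *T. media* library and 12.13 TPM in the lowest of *T. mairei*. Because only 57.06 bp of its length count as effective, these levels rest on few reads, 20 to 40 per *T. media* library, 59 and 60 in *T. mairei* and 0, 1 and 4 in *T. cuspidata*. The log2 fold change was 3.95 (SE 0.77) for *T. media* vs. *T. cuspidata*, -1.18 (SE 0.65) for *T. media* vs. *T. mairei* and 5.14 (SE 0.81) for *T. mairei* vs. *T. cuspidata*.

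Together the 3 comp25426 unigenes held 310, 211 and 227 reads in *T. media*, 1164 and 874 reads in *T. mairei* replicates 1 and 2, and 6, 5 and 28 reads in *T. cuspidata*. Most of the *T. cuspidata* reads were thus in replicate 3. Without that library the log2 fold changes of *T. media* vs. *T. cuspidata* were 5.09 for comp25426_c2, 8.22 for comp25426_c0 and 5.43 for comp25426_c1. Those of *T. mairei* vs. *T. cuspidata* were 7.37, 9.85 and 6.61. The value of comp25426_c0 is then set against libraries without a read and is no bound. The parts did not keep a fixed ratio: the TPM of comp25426_c1 was 3.44, 2.51 and 2.11 times that of comp25426_c2 in *T. media*, against 1.11, 1.44 and 1.03 times in *T. mairei*. For comp25426_c0 over comp25426_c2 the ratios were 2.26, 0.74 and 1.72 in *T. media*, against 1.23, 0.73 and 1.09 in *T. mairei*, and overlapped.

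**Figure D2:**
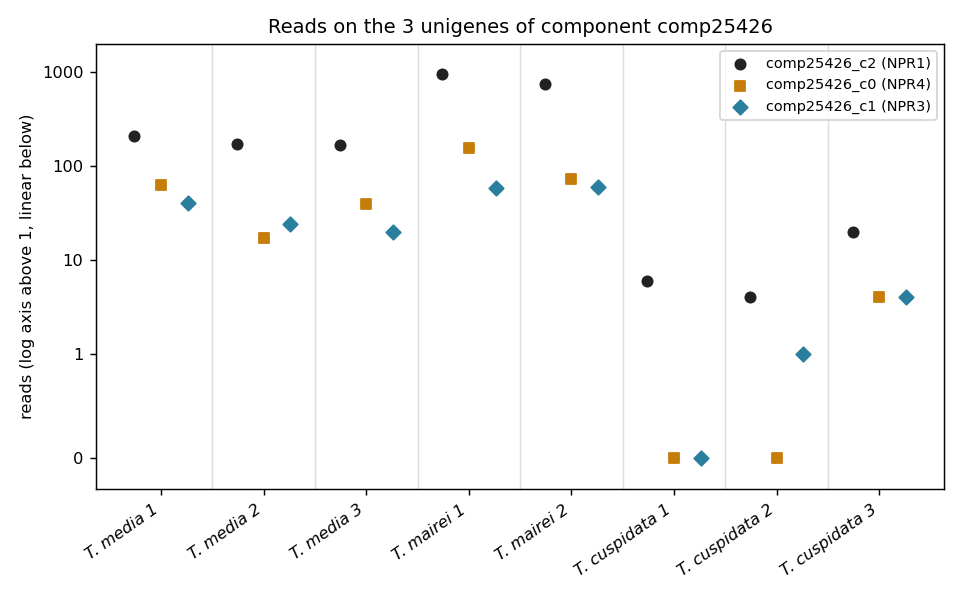
Reads counted on comp25426_c2 (circles), comp25426_c0 (squares) and comp25426_c1 (diamonds) in each of the 8 libraries with read numbers; the axis is logarithmic above 1 read and linear below. *T. cuspidata* replicate 3 holds 28 reads on the 3 unigenes, and replicates 1 and 2 hold 6 and 5.

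The long NPR3 unigene comp30369_c0 was the one NPR1, NPR3 or NPR4 unigene present at similar levels in all species. It had 18.21, 15.87 and 15.45 TPM in *T. media*, 14.97, 15.27 and 20.27 TPM in *T. mairei* and 11.75, 11.31 and 11.22 TPM in *T. cuspidata*. All *T. cuspidata* libraries lay below those of the other species, and *T. media* and *T. mairei* overlapped. It was called higher in *T. mairei* than in *T. cuspidata*, with a log2 fold change of 1.02 (SE 0.1, adjusted p = 8.9e-05 by the quasi-likelihood test of edgeR, Benjamini-Hochberg). This call stood at the limit of 1 and was lost with a mean count of at least 50 (0.99) and by limma on log2(TPM + 1) (0.51). In *T. media* vs. *T. cuspidata* its difference of 0.45 (SE 0.09) passed the edgeR test, with an adjusted p of 0.0071, and not the limit on the fold change. The same held for *T. media* vs. *T. mairei*, at -0.58 (SE 0.1, edgeR adjusted p = 0.002), a difference of -0.02 by limma on log2(TPM + 1).

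Summed over the 4 unigenes named NPR1, NPR3 or NPR4, the level was 41.6, 32.1 and 31.2 TPM in *T. media*, 51.5, 46.8 and 58.7 TPM in *T. mairei* and 11.9, 11.7 and 13.3 TPM in *T. cuspidata*. If the comp25426 unigenes are pieces of a single gene, this sum counts that gene more than once, and the shares below shift with it. The makeup of this sum differed. comp30369_c0 made up 43.8 to 49.5% of it in *T. media* and 29.1 to 34.5% in *T. mairei*, against 99.0, 96.7 and 84.4% in *T. cuspidata*.

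The NPR5 and NPR6 unigenes had another order, with *T. cuspidata* highest in TPM for each of the 3. The NPR6 unigene comp10798_c0, a relative of the *Arabidopsis* regulator of leaf base and organ boundary growth, had 4.32, 7.29 and 7.22 TPM in *T. media*. It had 7.03, 4.89 and 4.52 TPM in *T. mairei* and 16.67, 11.64 and 21.12 TPM in *T. cuspidata*. *T. media* and *T. mairei* overlapped, and every *T. cuspidata* library was above them. It was called lower in *T. media* than in *T. cuspidata* (log2 -1.47, SE 0.34, edgeR adjusted p = 0.011), and this call was kept under all 18 other settings. *T. mairei* vs. *T. cuspidata* was not called in edgeR (log2 -0.85, SE 0.38, adjusted p = 0.086). It was called by limma on log2(TPM + 1) (log2 -1.41, adjusted p = 0.0017) and in edgeR without *T. cuspidata* replicate 2 (log2 -1.07, adjusted p = 0.049). *T. media* vs. *T. mairei* was not called (log2 -0.62, SE 0.37, edgeR adjusted p = 0.19) and had the other sign by limma on log2(TPM + 1), at 0.16.

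The NPR5 unigene comp19695_c0 had 10.59, 13.50 and 8.50 TPM in *T. media*. It had 17.86, 10.55 and 12.46 TPM in *T. mairei* and 19.06, 20.37 and 24.02 TPM in *T. cuspidata*. *T. cuspidata* was above both other species in every library, and *T. media* and *T. mairei* overlapped. In edgeR it was called lower in *T. media* than in *T. cuspidata* (log2 -1.05, SE 0.25, adjusted p = 0.012) and than in *T. mairei* (log2 -1.09, SE 0.27, adjusted p = 0.0096). Neither call was firm. The call against *T. cuspidata* missed the limit on the fold change without *T. media* replicate 3 (-0.93), without *T. cuspidata* replicate 3 (-0.94), with library sizes only (-0.84) and by limma on log2(TPM + 1) (-0.92). The call against *T. mairei* was lost without *T. mairei* replicate 1 (log2 -0.68, edgeR adjusted p = 0.1), without *T. media* replicate 3 (-0.96), with library sizes only (-0.9) and by limma on log2(TPM + 1) (-0.29). *T. mairei* vs. *T. cuspidata* was near 0 in edgeR (log2 0.04, SE 0.27, adjusted p = 0.92) and at -0.62 by limma on log2(TPM + 1).

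The short NPR5 unigene comp168630_c0 was the one NPR unigene lowest in *T. mairei* in every library. It had 2.37, 3.75 and 1.99 TPM in *T. media*, 0.62, 0.51 and 0.14 TPM in *T. mairei* and 4.79, 3.22 and 4.65 TPM in *T. cuspidata*. It rested on 19 to 31 reads per library in *T. media*, 10 and 7 in *T. mairei* and 34 to 50 in *T. cuspidata*. *T. media* and *T. cuspidata* overlapped (log2 -0.73, SE 0.41, edgeR adjusted p = 0.2). It was called lower in *T. mairei* than in *T. cuspidata* (log2 -2.26, SE 0.51, edgeR adjusted p = 0.0058), a call lost without *T. mairei* replicate 2 (log2 -2.13, adjusted p = 0.054). It was also called higher in *T. media* than in *T. mairei* (log2 1.53, SE 0.51, edgeR adjusted p = 0.033). That call was lost in edgeR without *T. media* replicate 2 (log2 1.23, adjusted p = 0.093), without *T. mairei* replicate 1 (1.68, 0.11) and without *T. mairei* replicate 2 (1.4, 0.16), and by DESeq2 (1.46, 0.052).

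**Figure D3:**
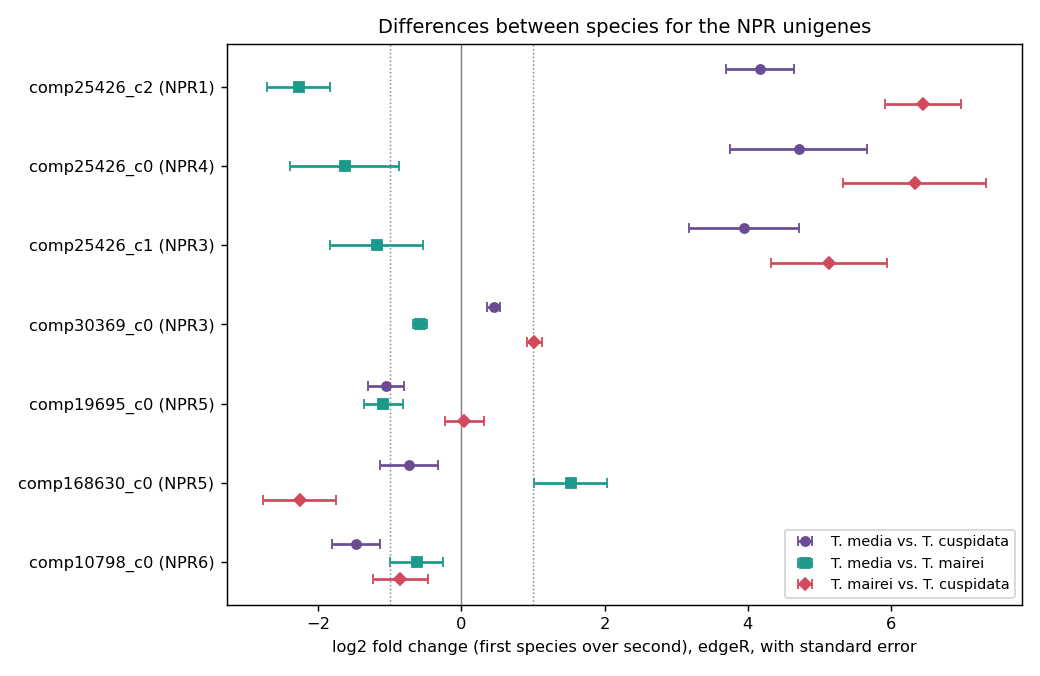
Log2 fold change of each NPR unigene in the 3 comparisons of species, first species over second, from the edgeR fit, with its standard error (bars) and the limits of -1 and 1 (dotted). The comp25426 unigenes reach 6.44 in *T. mairei* vs. *T. cuspidata*, while the other 4 lie between -2.26 and 1.53.

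Among the 4 NPR unigenes outside comp25426, 0 were called with *T. media* above *T. cuspidata* and 2 with *T. media* below it, against 15.7% and 10.1% of all 32624 unigenes tested. In the comparison with *T. mairei*, 1 was called with *T. media* above and 1 with *T. media* below, against 20.8% and 23.5% of all. For *T. mairei* vs. *T. cuspidata*, 1 was called with *T. mairei* above and 1 with *T. mairei* below, against 27.8% and 21.5% of all. Calls were thus frequent everywhere, and the counts of 4 unigenes cannot be set apart from that background. The medians of the 4 were -0.89, -0.6 and -0.41 in the 3 comparisons, beside 0.04, 0.02 and 0.06 for all unigenes.

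TPM and the TMM-normalized counts did not place *T. mairei* alike. By limma on log2(TPM + 1) over all 9 libraries, the median of all unigenes was 0.61 in *T. media* vs. *T. mairei*, -0.41 in *T. mairei* vs. *T. cuspidata* and 0.11 in *T. media* vs. *T. cuspidata*. Calls of *T. media* vs. *T. mairei* then numbered 11381 with *T. media* above and 6092 with it below, against 6787 and 7653 in edgeR. Those of *T. mairei* vs. *T. cuspidata* numbered 7359 with *T. mairei* above and 10562 with it below, against 9068 and 7027 in edgeR. Relative to its median, the limma difference of comp19695_c0 in *T. media* vs. *T. mairei* was -0.9, that of comp30369_c0 in *T. mairei* vs. *T. cuspidata* was 0.92, and that of comp10798_c0 in *T. mairei* vs. *T. cuspidata* was -1.0. The comp25426 unigenes kept their sign in each comparison under every setting that could be fitted for them.

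**Figure D4:**
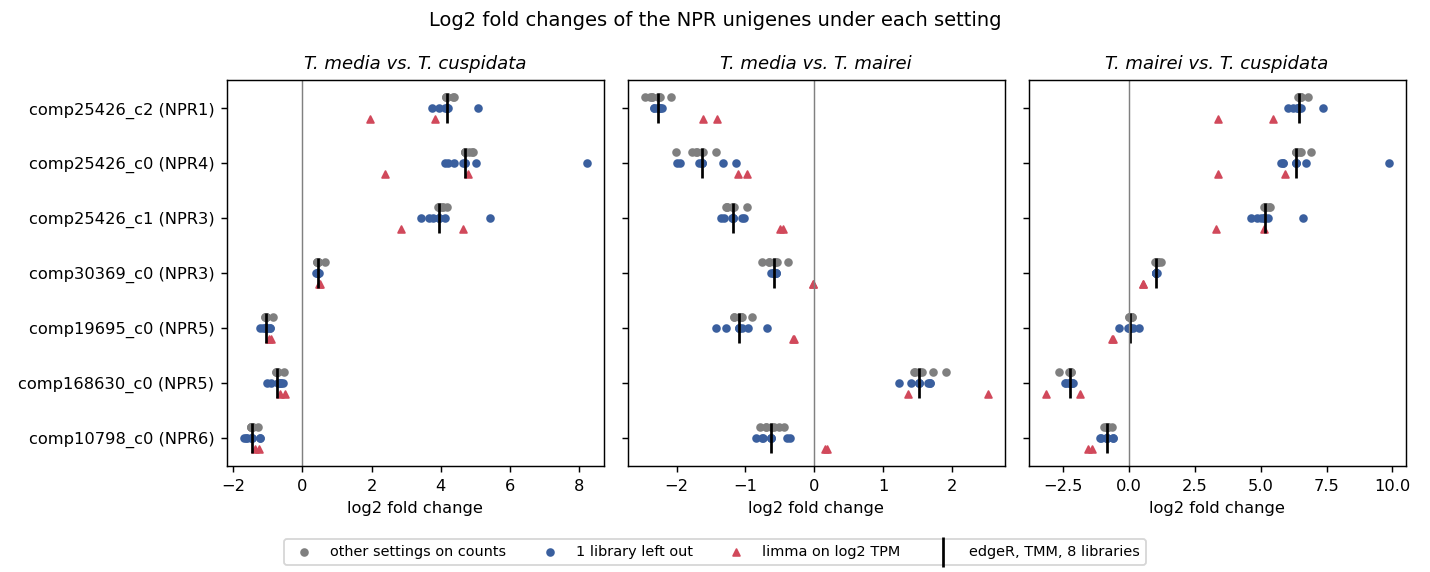
Log2 fold changes of the 7 NPR unigenes in the 3 comparisons (horizontal axes) by edgeR on 8 libraries (black bars), under other settings on counts (grey), with 1 library left out (blue) and by limma on log2 TPM (red). The comp25426 unigenes stay on their side of 0, and comp19695_c0 and comp10798_c0 cross it by limma, at -0.62 in *T. mairei* vs. *T. cuspidata* and 0.16 in *T. media* vs. *T. mairei*.

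Salicylate signaling was then followed outside the family. In plants salicylate is made from isochorismate or from phenylalanine, is modified by methylation, glucosylation and de-esterification, and acts through NPR proteins on TGA factors and on genes such as PR1, while cullin 3 ligases remove NPR1 from the nucleus. The lists made for this left out the phenylalanine route, for which the study names a phenylalanine ammonia-lyase unigene. Gene names and KEGG orthologs gave 24 unigenes of the other steps, and all were tested. In *T. media* vs. *T. cuspidata*, 3 were called with *T. media* above and 5 with it below (33.3%, against 25.8% of all unigenes, median log2 0.23). In *T. media* vs. *T. mairei*, 3 were called higher in each species (25.0%, against 44.3% of all, median -0.22). In *T. mairei* vs. *T. cuspidata*, 6 were called with *T. mairei* above and 4 with it below (41.7%, against 49.3% of all, median 0.46). The balance of directions changed with the scaling: limma on log2(TPM + 1) called 8 with *T. media* above *T. mairei* and 3 with it below, and 2 with *T. mairei* above *T. cuspidata* and 5 with it below. With library sizes only, 6 were called with *T. media* above *T. cuspidata* and 4 with it below. No unigene matched the list of upstream regulators of salicylate synthesis. By the broader gene ontology terms on salicylate, 82 unigenes were tested outside the family, some of them also among the 24. Of these 82, 19, 24 and 31 were called higher in the first species and 6, 26 and 22 in the second, in the same order of comparisons. These are 30.5, 61.0 and 64.6% of the 82, against 25.8, 44.3 and 49.3% of all unigenes.

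**Figure D5:**
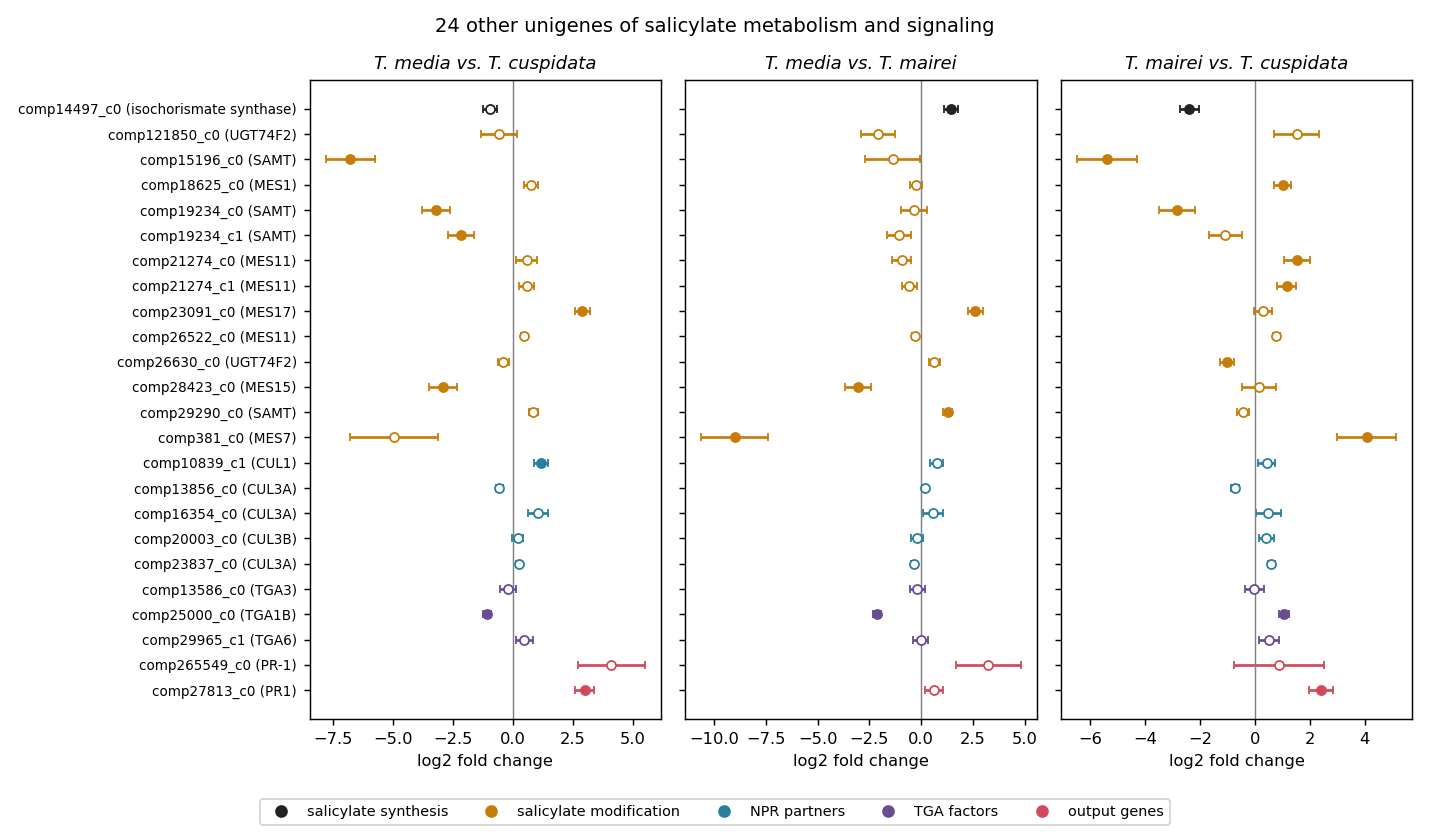
Log2 fold change with its standard error for the 24 unigenes listed by name or ortholog under salicylate synthesis, modification, NPR partners, TGA factors and output genes. Values are first species over second, in each comparison (edgeR, filled points were called). Called unigenes lie on both sides of 0, with 3 to the right and 5 to the left in *T. media* vs. *T. cuspidata*.

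For synthesis by way of isochorismate, the list held a single unigene, comp14497_c0. It is annotated as menaquinone-specific isochorismate synthase, a label that does not name salicylate. Its levels were 4.02, 6.0 and 4.39 TPM in *T. media*, 1.05, 0.50 and 1.07 TPM in *T. mairei* and 12.20, 13.62 and 3.36 TPM in *T. cuspidata*. It was lowest in *T. mairei*, where the comp25426 unigenes were highest. It was called lower in *T. mairei* than in *T. cuspidata* (log2 -2.39, SE 0.35, edgeR adjusted p = 0.00061) and higher in *T. media* than in *T. mairei* (log2 1.44, SE 0.34, edgeR adjusted p = 0.0074, and 0.061 without *T. mairei* replicate 2). *T. media* vs. *T. cuspidata* was not called (log2 -0.95, edgeR adjusted p = 0.031) and was called without *T. cuspidata* replicate 3 (log2 -1.13, edgeR adjusted p = 0.022).

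For modification, SAMT methylates salicylate and some MES enzymes, not all, free it again. The deposited KEGG annotation instead reads jasmonate O-methyltransferase for the SAMT unigenes and polyneuridine-aldehyde esterase for the MES unigenes. The MES unigenes were listed by name, and whether any of them acts on methylated salicylate was not tested. The SAMT unigene comp15196_c0 had 0.00, 0.22 and 0.06 TPM in *T. media*, 0.04, 0.27 and 0.18 TPM in *T. mairei* and 3.57, 11.91 and 13.94 TPM in *T. cuspidata*. It was highest in *T. cuspidata*, where comp25426_c2 was lowest, and *T. media* and *T. mairei* overlapped. It was called lower in *T. media* (log2 -6.77, SE 1.03, edgeR adjusted p = 0.0017) and in *T. mairei* (log2 -5.39, SE 1.1, edgeR adjusted p = 0.0035) than in *T. cuspidata*. The size rested on single libraries, at -6.12 without *T. media* replicate 1 and -8.1 without *T. media* replicate 2, and at -4.55 without *T. mairei* replicate 1 and -7.22 without *T. mairei* replicate 2. The MES15 unigene comp28423_c0, the highest of the list, had 10.27, 7.94 and 5.03 TPM in *T. media*, 24.19, 52.13 and 16.67 TPM in *T. mairei* and 112.57, 30.18 and 26.88 TPM in *T. cuspidata*. It was called lower in *T. media* than in *T. mairei* (log2 -3.04, edgeR adjusted p = 0.0043) and than in *T. cuspidata* (log2 -2.9, edgeR adjusted p = 0.0068), with -2.38 without *T. mairei* replicate 2 and -1.99 without *T. cuspidata* replicate 1. The MES7 unigene comp381_c0 had no read in the *T. media* libraries and 39 and 81 reads in *T. mairei*, at least 62.9-fold more after TMM scaling, with 3 reads summed over *T. media* as the floor. Others of the list were highest in *T. media*, of which 2 were chosen after their values were seen. The MES17 unigene comp23091_c0 had 51.3 ± 6.93 TPM in *T. media*, 4.88 ± 1.24 TPM in *T. mairei* and 6.38 ± 2.48 TPM in *T. cuspidata* (SD, n = 3 each), and was called higher in *T. media* than in *T. mairei* (log2 2.61, edgeR adjusted p = 0.00059) and than in *T. cuspidata* (log2 2.91, edgeR adjusted p = 0.00034). The SAMT unigene comp29290_c0 had 31.52 to 49.55 TPM in *T. media*, 9.94 to 12.92 TPM in *T. mairei* and 17.47 to 24.90 TPM in *T. cuspidata*, and was called higher in *T. media* than in *T. mairei* (log2 1.28, edgeR adjusted p = 0.0019). The remaining SAMT unigenes, comp19234_c0 and comp19234_c1 of a single component, were also added after their values were seen. Both were called lower in *T. media* than in *T. cuspidata* (log2 -3.19 and -2.15, edgeR adjusted p = 0.0037 and 0.017). In *T. mairei* vs. *T. cuspidata* only the first was called, lower in *T. mairei* (log2 -2.84, edgeR adjusted p = 0.0064).

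Of the 5 cullin 3 unigenes, partners of NPR1, edgeR called 1 in *T. media* vs. *T. cuspidata*, 0 in *T. media* vs. *T. mairei* and 0 in the comparison of *T. mairei* with *T. cuspidata*, against 25.8, 44.3 and 49.3% of all unigenes. Of the 2 named here, limma on log2(TPM + 1) called comp10839_c1 in *T. media* vs. *T. mairei* (log2 1.46) and comp13856_c0 in *T. mairei* vs. *T. cuspidata* (log2 -1.27). The highest, comp13856_c0 (CUL3A), had 13.87 to 17.22 TPM in *T. media*, 7.81 to 8.32 TPM in *T. mairei* and 19.82 to 21.92 TPM in *T. cuspidata*. In *T. media* vs. *T. cuspidata*, comp10839_c1 (named CUL1, ortholog cullin 3) was called higher in *T. media* (log2 1.18, SE 0.28, edgeR adjusted p = 0.013), and missed the limit without *T. cuspidata* replicate 3 (0.96).

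Of the 3 TGA unigenes, comp25000_c0 (TGA1B) was called in each comparison. It was listed by name and carried none of the gene ontology terms on salicylate. At least 1 such term was given for comp13586_c0 (TGA3) and for comp29965_c1 (TGA6). Whether comp25000_c0 acts with NPR proteins was not tested. It had 12.88, 10.63 and 12.08 TPM in *T. media*, 33.22, 30.77 and 42.08 TPM in *T. mairei* and 28.49, 18.07 and 23.58 TPM in *T. cuspidata*. *T. mairei* was highest, as for comp25426_c2, but here *T. media* was lowest. The log2 fold changes were -1.06 in *T. media* vs. *T. cuspidata*, -2.13 in *T. media* vs. *T. mairei* and 1.07 in *T. mairei* vs. *T. cuspidata*, with edgeR adjusted p of 0.002, 5.7e-05 and 0.0013. The first missed the limit without *T. media* replicate 2 (-0.99), without *T. cuspidata* replicate 1 (-0.93), with library sizes only (-0.85) and by limma on log2(TPM + 1) (-0.9), and the last without *T. cuspidata* replicate 2 (0.9) and by limma on log2(TPM + 1) (0.59). The highest TGA unigene, comp29965_c1 (TGA6), was called in none of the comparisons by edgeR, with 31.84 to 47.12 TPM in *T. media*, 16.77 to 33.12 TPM in *T. mairei* and 25.46 to 27.70 TPM in *T. cuspidata*.

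The PR1 unigene comp27813_c0, an extracellular defense protein whose gene is the usual marker of NPR1 activity in *Arabidopsis*, had 337.80, 198.91 and 174.24 TPM in *T. media*. It had 68.91, 122.13 and 65.66 TPM in *T. mairei* and 17.32, 24.54 and 40.42 TPM in *T. cuspidata*. Like comp25426_c2 it was lowest in *T. cuspidata*, but its highest level was in *T. media*, not in *T. mairei*. It was called higher in *T. media* (log2 3.0, SE 0.41, edgeR adjusted p = 0.0011) and in *T. mairei* (log2 2.41, SE 0.43, edgeR adjusted p = 0.0017) than in *T. cuspidata*. *T. media* vs. *T. mairei* was not called by edgeR (log2 0.6, SE 0.43, adjusted p = 0.28) and was called by limma on log2(TPM + 1) (log2 1.46, adjusted p = 0.0088). The other output unigene, comp265549_c0 (PR-1), had mean levels of 3.41 TPM in *T. media*, 0.18 TPM in *T. mairei* and 0.167 TPM in *T. cuspidata*. It was called in no comparison by edgeR, although all *T. media* libraries lay above those of the other species. The log2 fold change was 4.12 in *T. media* vs. *T. cuspidata* (SE 1.41, edgeR adjusted p = 0.052). It was 3.24 in *T. media* vs. *T. mairei* (SE 1.57, edgeR adjusted p = 0.11) and 0.88 in *T. mairei* vs. *T. cuspidata* (SE 1.65, edgeR adjusted p = 0.67). Chosen after their values were seen, the 2 unigenes named after the *Arabidopsis* thaumatin-like gene PR5 (At1g75040) went different ways. comp8798_c0 had 0.93 to 3.21 TPM in *T. media*, 6.53 to 14.52 TPM in *T. mairei* and 0.26 to 1.90 TPM in *T. cuspidata*, while comp9357_c0 had 3.50 to 8.36 TPM in *T. media*, 0.74 to 1.5 TPM in *T. mairei* and 8.86 to 11.14 TPM in *T. cuspidata*. Both were called in *T. mairei* vs. *T. cuspidata*, at log2 4.21 (edgeR adjusted p = 0.0018, and log2 5.1 without *T. cuspidata* replicate 2) and -2.58 (edgeR adjusted p = 0.0021).

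The annotation term on regulation of jasmonic acid signaling, which comp25426_c0 and comp25426_c2 carry, is shared by 2 further unigenes, both named TIFY9, a jasmonate signaling repressor of *Arabidopsis*. comp22595_c0 had 13.2 ± 8.01 TPM in *T. media*, 3280 ± 464 TPM in *T. mairei* and 4.66 ± 2.53 TPM in *T. cuspidata* (SD, n = 3 each). For comp17450_c0 the levels were 7.71 ± 1.89 TPM in *T. media*, 341 ± 92.7 TPM in *T. mairei* and 5.1 ± 0.802 TPM in *T. cuspidata* (SD, n = 3 each). As for the comp25426 unigenes, *T. mairei* was highest, and the libraries of *T. media* lay above those of *T. cuspidata* without overlap. Both were called higher in *T. mairei* than in *T. cuspidata* (log2 9.09 and 6.45, edgeR adjusted p = 1.7e-05 and 1.3e-06) and were not called in *T. media* vs. *T. cuspidata* (log2 0.66 and 0.51, edgeR adjusted p = 0.36 and 0.059). The first of these was -0.26 without *T. media* replicate 1, and limma on log2(TPM + 1) called it higher in *T. media* (log2 1.32, adjusted p = 0.047).

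Among 13451 named unigenes with a mean of at least 1 TPM, 275 had a Pearson's r above 0.95 with comp25426_c2 over the 9 libraries on log2(TPM + 1). The r is a description, since the 9 points fall into 3 species and share library and depth. The highest were those of comp26624_c1 (KEX1, 0.9985), comp10571_c0 (accD, a plastid acetyl-CoA carboxylase subunit, 0.9972), comp17410_c0 (PUMP5, a mitochondrial carrier, 0.997), comp8423_c0 (Pcyt1b, of phosphatidylcholine synthesis, 0.9964) and comp17647_c0 (RBP31, a chloroplast RNA-binding protein, 0.9957). KEX1, for example, had 42.8 ± 7.32 TPM in *T. media*, 738 ± 162 TPM in *T. mairei* and 0.36 ± 0.305 TPM in *T. cuspidata* (SD, n = 3 each).

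The twigs differed in markers of their tissues along with these levels. The 43 unigenes of needle markers were picked by name patterns for the small subunit of rubisco, chlorophyll-binding and photosystem proteins. The names were not checked further, and that of comp15205_c0 (CAB39) is not particular to chlorophyll-binding proteins. The needle markers summed to 19000 to 34200 TPM in *T. media*, 3190 to 5610 TPM in *T. mairei* and 40300 to 47900 TPM in *T. cuspidata*. None of them was at 0 in all *T. media* libraries, 13 were at 0 in all of *T. mairei* and 16 in all of *T. cuspidata*. The 5 wood markers summed to 26.1 to 30.7 TPM in *T. media*, 62.8 to 90.1 TPM in *T. mairei* and 22.5 to 33.4 TPM in *T. cuspidata*, with 1 of them at 0 in *T. cuspidata*. In order of species the needle sum thus ran against comp25426_c2 and the wood sum had the same highest species. Single markers went both ways. In *T. mairei* vs. *T. cuspidata*, edgeR called 27.8% of all unigenes higher in *T. mairei* and 21.5% lower. Of the 28 needle markers tested, 4 were called higher and 15 lower, and of the 5 wood markers 3 and 1. Their part in the NPR levels was not tested, and in whole twigs fewer cells of a type cannot be told apart from less RNA per cell. *T. media* replicate 1 held 131 unigenes of at least 1 TPM that were at 0 in all other libraries, 9 of them needle markers, against 1 to 37 such unigenes in each of the other 8 libraries. No NPR unigene was among them, and leaving that library out changed none of the calls of the 4 tested NPR unigenes.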

How the data were processed

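From total RNA of twigs, mRNA was purified with oligo(dT) beads and sequenced by Illumina. The authors assembled the reads of all 3 species together with Trinity 2.4.0, so that each unigene is a single reference for the reads of every species. Whether reads of each species match it equally well was not tested. The aligner and counting tool are not given in the sources used here. Per the file headers, the authors deposited TPM for all 9 libraries. Beside TPM, the files of 8 libraries hold expected counts deposited by the authors, and that of *T. mairei* replicate 3 holds RPKM instead. Counted reads were 32783233 to 41647131 per library in *T. media*, 37887549 and 43480998 in *T. mairei* and 39192663 to 44821305 in *T. cuspidata*.

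After rounding, expected counts entered the quasi-likelihood test of edgeR 4.0.16 (R 4.3.3), with TMM factors of 0.9334 to 1.157, low counts removed by filterByExpr (32624 unigenes kept), 1 mean per species and Benjamini-Hochberg adjustment over all unigenes. The script was tested on simulated data. *T. mairei* enters with 2 libraries. The 18 other settings were RLE factors, library sizes only, DESeq2 1.42.0, no filter, a mean count of at least 50, limma 3.58.1 on log2(TPM + 1) and log2(TPM + 0.1) over 9 libraries with a mean of at least 1 TPM, the 2 species compared alone, a replicate block, reads of *T. mairei* replicate 3 recovered from its deposited RPKM (37664000 reads, at which 97.6% of 3079 low values were whole to within 0.1), and each of 8 libraries left out.

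The members, lists and tests were chosen with earlier results of these data known. Named unigenes are all NPR unigenes and, from each list, the one with the highest mean TPM and, in each comparison, the called one with the largest absolute log2 fold change. To these come the 5 named unigenes most like comp25426_c2. No p is given for comp25426_c1, beyond the plan, because it shares a component with the unigenes on which the family was chosen. No sequences are shown, since the files used here hold none. Figures were drawn with matplotlib.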

Additional observations from a re-analysis of the deposited data

How the results depend on the processing

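In *T. media* vs. *T. mairei*, limma on log2(TPM + 1) and log2(TPM + 0.1) called 17473 and 18309 unigenes, against 14440 in edgeR. Of the 24 salicylate unigenes, limma called 11 and 11, against 6 in edgeR. With 1 library left out, the count in *T. mairei* vs. *T. cuspidata* lay between 5 (without *T. mairei* replicate 2) and 10, and was 6 without *T. cuspidata* replicate 2, against 10. Over all unigenes the totals stayed within 1.5 times those of edgeR. By direction they did not: limma on log2(TPM + 1) and log2(TPM + 0.1) called 11381 and 12352 with *T. media* above *T. mairei*, against 6787 in edgeR, and 10562 and 11419 with *T. mairei* below *T. cuspidata*, against 7027.

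Among the NPR unigenes, signs reversed for 2. For comp10798_c0 in *T. media* vs. *T. mairei* limma gave 0.16 and 0.18 with the pseudocounts of 1 and 0.1. For comp19695_c0 in *T. mairei* vs. *T. cuspidata* (0.04 in edgeR), limma gave -0.62 and -0.66, the recovered reads gave -0.02, and leaving out 1 library gave -0.37 to 0.37. The filter on a mean count of at least 50 left no value for comp25426_c0, comp25426_c1 and comp168630_c0. Leaving out a *T. mairei* library leaves 1 with counts, assumed to vary like the other species.

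For 13 named unigenes outside the family, the same settings, applied to them after the values were seen, gave 450 values for the differences printed above, of which 431 kept sign and call, 10 lost the call, 8 gained it and 1 reversed. The reversal was that of comp22595_c0 in *T. media* vs. *T. cuspidata*, where leaving out 1 library gave -0.26 (without *T. media* replicate 1) to 0.97. The cause was not tested.

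Same-numbered libraries of different species did not deviate together (9 pairs, r from -0.05 to 0.04, with the own number the closest in 4 of the 9), so the numbers do not pair them. With the replicate block 7108 unigenes were called in *T. media* vs. *T. cuspidata*, 12637 in *T. media* vs. *T. mairei* and 14421 in *T. mairei* vs. *T. cuspidata*, against 8418, 14440 and 16095 without it. The block ended the call of comp168630_c0 in *T. media* vs. *T. mairei* (log2 1.56, edgeR adjusted p = 0.095), and no other call of an NPR unigene.

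Depth limits the comp25426 unigenes in *T. cuspidata*, where 30, 4 and 5 reads in all were counted on c2, c0 and c1, and comp168630_c0 in *T. mairei*, with 17 reads in the 2 libraries with counts.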
